A study of Rattus norvegicus with 6 samples.

Results

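The thiazide-sensitive sodium chloride cotransporter Slc12a3 and the genes of its WNK-SPAK control pathway were followed in the kidneys of 6 rats. The set was defined as every probe set that the array annotation assigns to Slc12a3, Wnk1, Wnk4, Stk39, Oxsr1, Klhl3, Cul3, Pvalb, Trpm6 or Klk1 and to no other gene. It held 15 of the 31042 probe sets tested, for 8 of the 10 genes. For Wnk4, on chromosome 10, both probe sets are also assigned to Vps25 and Cntd1, and no probe set is listed for Trpm6, so neither gene was measured here.

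The rats were 3 male congenic S.LEW(10)x12x2x3x5 animals and 3 male Dahl S (salt-sensitive, S) controls, 1 array per animal. The Dahl S rat is an inbred strain prone to salt-sensitive hypertension and proteinuria, and the congenic strain carries chromosome 10 material of the Lewis (LEW) rat on that background. The rats shared a birth date and were weaned at 30 days, after which all ate a 0.3% salt diet until 53 days of age, with 1 rat of each strain in a cage. Which rats shared a cage is not given in the labels, so cage entered no test. The congenic animals come from a single line, and the limits of its segment were not placed here. The series deals with proteinuria and protein uptake by proximal tubule cells, and the comparison asked which kidney transcripts differ between the strains.

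Slc12a3 encodes the transporter that reabsorbs sodium and chloride in the distal convoluted tubule, the short segment beyond the macula densa, and it is the target of thiazide diuretics. The WNK kinases sense chloride and potassium and activate SPAK, the product of Stk39, and OSR1, the product of Oxsr1, which phosphorylate the cotransporter and switch it on. KLHL3 and CUL3 form the ubiquitin ligase that marks WNK kinases for degradation. In humans, mutations in WNK1, WNK4, KLHL3 or CUL3 cause familial hyperkalaemic hypertension, and loss of SLC12A3 causes the salt-wasting Gitelman syndrome.

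The promoters of the genes on which the results turn are shown because Slc12a3, Klk1 and Wnk1 had the widest spread within S rats of the set, and because Stk39 held the only strain difference that passed. Each is the 250 bases before the annotated transcript start, 5′ to 3′ on the gene's strand, from RefSeq on GRCr8. A window was found for 9 of the 10 genes and none for Cul3. Capitals mark matches to TATAAA (the TATA box), CCAAT (the CCAAT box), AGAACA (a steroid receptor half-site) or GTTAAT (an HNF1 half-site), on either strand.
Slc12a3 (chr19:10675051-10675300, minus strand): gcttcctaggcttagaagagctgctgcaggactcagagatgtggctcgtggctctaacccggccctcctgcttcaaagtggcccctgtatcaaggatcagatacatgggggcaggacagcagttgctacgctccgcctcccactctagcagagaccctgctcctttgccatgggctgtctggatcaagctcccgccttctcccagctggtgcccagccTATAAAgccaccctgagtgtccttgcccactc
Klk1 (chr1:103778902-103779151, plus strand): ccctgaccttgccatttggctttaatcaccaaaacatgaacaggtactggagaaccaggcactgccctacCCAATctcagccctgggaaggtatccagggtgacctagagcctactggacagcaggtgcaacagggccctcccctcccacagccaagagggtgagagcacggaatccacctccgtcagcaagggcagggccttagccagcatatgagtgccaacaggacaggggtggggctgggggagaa
Wnk1 (chr4:154926148-154926397, minus strand): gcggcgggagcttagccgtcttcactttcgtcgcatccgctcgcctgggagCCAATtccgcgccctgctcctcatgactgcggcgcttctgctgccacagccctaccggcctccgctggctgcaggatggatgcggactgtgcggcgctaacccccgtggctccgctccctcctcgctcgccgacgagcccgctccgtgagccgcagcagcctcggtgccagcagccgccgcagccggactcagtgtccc
Stk39 (chr3:73586980-73587229, minus strand): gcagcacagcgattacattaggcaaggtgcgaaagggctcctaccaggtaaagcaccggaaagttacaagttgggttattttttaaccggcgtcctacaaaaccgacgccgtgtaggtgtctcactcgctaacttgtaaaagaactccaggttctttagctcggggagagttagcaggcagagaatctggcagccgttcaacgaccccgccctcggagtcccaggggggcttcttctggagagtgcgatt

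In the Slc12a3 window TATAAA began 32 bases before the start, and this motif was present in 13.1% of 27457 rat promoter windows of the same length. The Klk1 and Wnk1 windows each held a single CCAAT, 180 and 199 bases before the start, a motif found in 34.3% of all windows. The Stk39 window held none of these motifs. AGAACA, found in 17.1% of all windows, was absent from these 4 windows and occurred once in that of Pvalb. GTTAAT, found in 6.5% of all windows, occurred in none of the 9. Wnk1 is also known to be transcribed in the distal nephron from an internal promoter, as a short kidney-specific form without the kinase domain, and this internal promoter lies outside the window shown. A match describes the letters of the window, and use of these sites was not measured.

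Values below are log2 intensities, so a difference of 1 is 2-fold. Strains were compared with limma's moderated two-sided test, fitted to all probe sets, with Benjamini-Hochberg adjustment over all of them and a threshold of 0.05. Of the 15 probe sets 1 passed (6.67%), against 6.00% of all 31042 tested. It was lower in congenic rats, as were 2.53% of all, while 3.47% of all were higher. The strains did not overlap at 2 of the 15 probe sets (13.3%), against 31.2% of all. The median difference of the 15 was 0.04 and that of all probe sets -0.02. These shares do not set the 15 apart from the array.

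**Figure D1:**
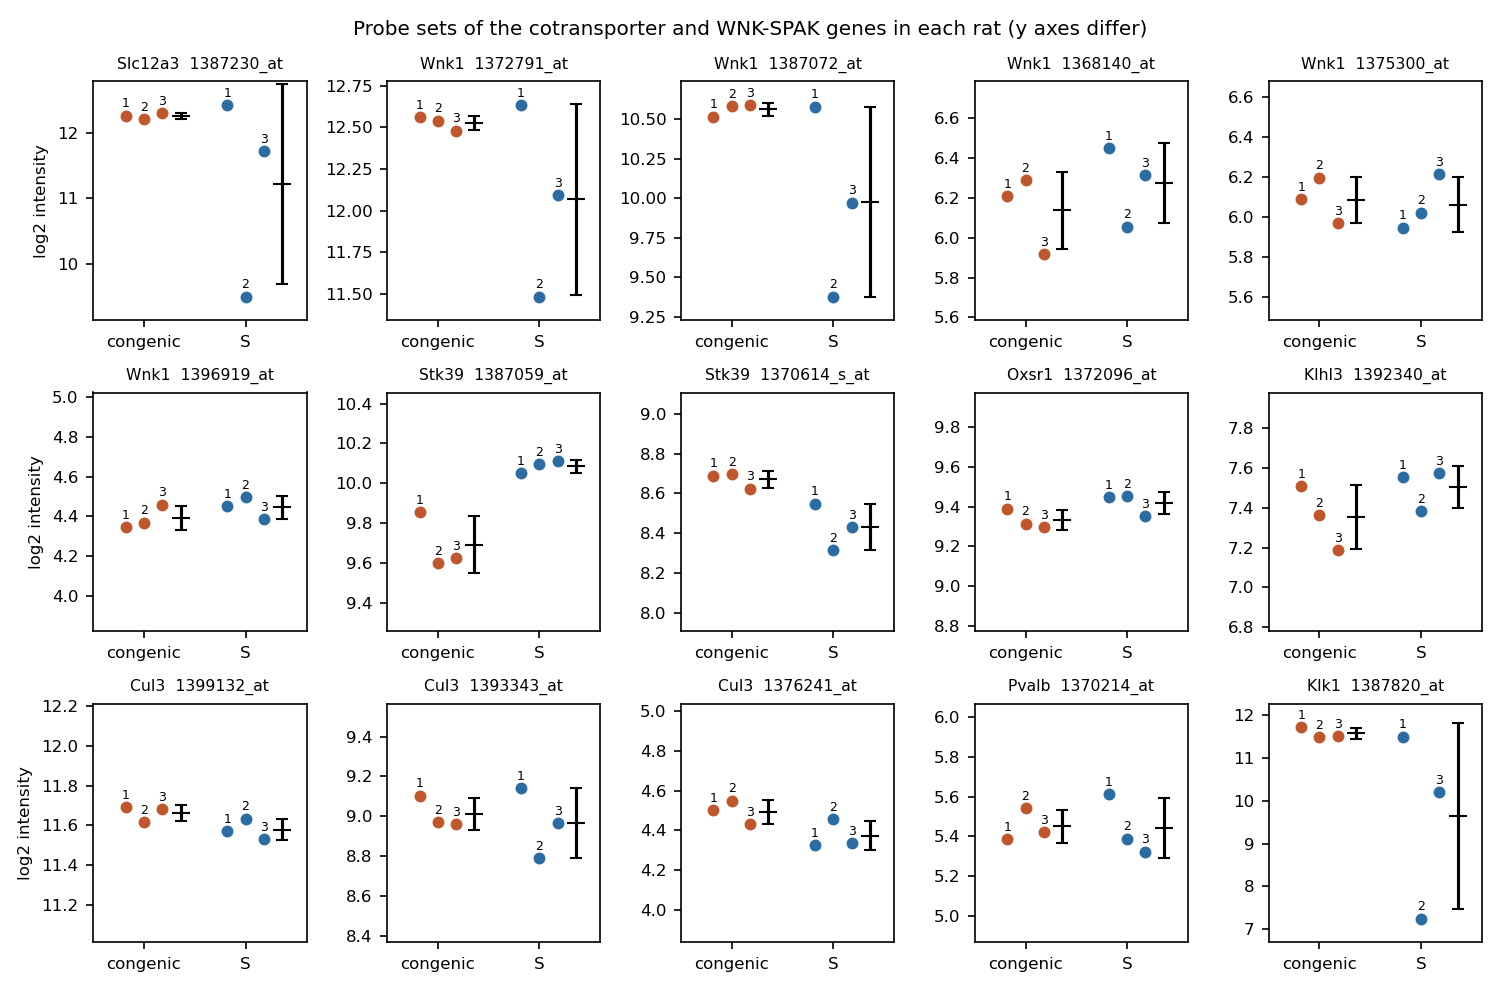
Log2 intensity of each of the 15 probe sets in every rat (points, numbered by rat, congenic rats left and S rats right), with the mean and SD of each strain as bars; the y axes differ between panels. S rat 2 lies far below the other 5 rats for Slc12a3, Klk1 and the 2 brightest Wnk1 probe sets, and the strains separate only for the 2 Stk39 probe sets, in opposite directions.

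The cotransporter itself was abundant and nearly constant in congenic kidneys and scattered widely in S kidneys. Slc12a3 stood at 12.27, 12.21 and 12.31 in congenic rats 1 to 3, against 12.42, 9.50 and 11.73 in S rats 1 to 3. The strains overlapped, with S rat 1 the highest and S rat 2 the lowest of the 6. The means were 12.26 ± 0.05 in congenic and 11.22 ± 1.53 in S rats (SD, n = 3 each), a difference of 1.05 ± 0.61 (SE) with a 95% interval of -0.34 to 2.44, which did not pass (limma, adjusted p = 0.329). Without S rat 2 the difference was 0.19 ± 0.17 (SE, limma, adjusted p = 0.610), and without S rat 1 it was 1.65 (limma, adjusted p = 0.0578). In whole kidney, fewer cells of a segment and less RNA per cell cannot be told apart.

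RNA quality also differed between the rats. Each array reads beta-actin and Gapdh at both transcript ends, and an excess of 3′ over 5′ signal marks degraded or incompletely copied RNA. Averaged over both genes, this excess was 1.01 to 1.26 (log2) in congenic rats, against 1.56, 2.10 and 1.70 in S rats 1 to 3. S rat 2 had the highest value, and within S rats its order was the reverse of that of Slc12a3. S rat 1 had more Slc12a3 signal than any congenic rat, with an RNA quality value outside the congenic range. With this value as a covariate in limma's model (the RNA quality term) the Slc12a3 difference turned to -1.95 ± 0.60 (SE, adjusted p = 0.539). The term separates the strains without overlap, so its part in the result cannot be told apart from that of strain.

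Among the kinases, the 2 bright Wnk1 probe sets shared the pattern of Slc12a3 on a smaller scale. WNK1 is the kinase that starts the cascade in most tissues, and in the kidney its short form is the more abundant one. The brightest probe set (1372791_at) stood at 12.56, 12.54 and 12.48 in congenic rats 1 to 3, against 12.63, 11.48 and 12.09 in S rats 1 to 3. The next (1387072_at) stood at 10.52, 10.58 and 10.59 in congenic rats, against 10.58, 9.38 and 9.97 in S rats. In both S rat 2 was lowest and S rat 3 next, while S rat 1 was above the congenic mean by 0.10 and 0.02. The differences were 0.46 ± 0.24 and 0.59 ± 0.25 (SE) and did not pass (limma, adjusted p = 0.269 and adjusted p = 0.179). Without S rat 2 they were 0.17 and 0.29, and without S rat 1 they were 0.74 and 0.89 and passed (limma, adjusted p = 0.0146 and adjusted p = 0.00643). With the RNA quality term they turned to -0.62 and -0.58. Which Wnk1 transcript each probe set detects was not analysed here.

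The other 3 Wnk1 probe sets were dim, with means over all rats of 6.21, 6.07 and 4.42, the highest of them at percentile 29.7 of all probe sets. Their differences were -0.14, 0.02 and -0.05, with intervals that all contained 0, and S rat 2 did not stand apart at any of them. Signal near the floor of the array can hide a change.

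Stk39, which encodes SPAK, gave the only call of the set, and its 2 probe sets pointed in opposite directions. The brighter one (1387059_at) stood at 9.85, 9.60 and 9.62 in congenic rats 1 to 3, against 10.05, 10.10 and 10.11 in S rats 1 to 3. The strains did not overlap, and here the S rats agreed within 0.06 while congenic rat 1 lay above the other congenic rats. The means were 9.69 ± 0.14 in congenic and 10.09 ± 0.03 in S rats (SD, n = 3 each), so that Stk39 fell by 0.39 on the log2 scale (SE 0.08, limma, adjusted p = 0.0360), to 0.761 times the S level with a 95% interval of 0.669 to 0.866. S rat 2, the outlying rat at Slc12a3, was at 10.10, in the middle of its strain. Without it the difference was -0.39 and the call was lost (limma, adjusted p = 0.0634). The call was also lost without congenic rat 2 (adjusted p = 0.140), congenic rat 3 (adjusted p = 0.157) or S rat 3 (adjusted p = 0.110). The differences there were -0.35, -0.36 and -0.38. Only 0, 8 and 0 probe sets of the whole array passed in these fits, so these losses were not particular to Stk39. The call was kept without congenic rat 1 (limma, adjusted p = 0.0413) or S rat 1 (limma, adjusted p = 0.0211). When RNA quality was in the model the call was lost, as was every call on the array, at -0.23 ± 0.16 (SE; limma, adjusted p = 0.845).

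The second Stk39 probe set (1370614_s_at) stood at 8.69, 8.70 and 8.62 in congenic rats, against 8.55, 8.32 and 8.43 in S rats. Every congenic rat was above every S rat. The difference of 0.24 ± 0.08 (SE, 1.18-fold) did not pass (limma, adjusted p = 0.0951). It was 0.18 without S rat 2, 0.30 without S rat 1, where it passed (limma, adjusted p = 0.0329), and 0.02 with the RNA quality term. Shorter SPAK forms that lack part of the kinase domain are known from mouse kidney. The part of the transcript that each probe set covers was not analysed here, so the gene as a whole has no single direction in these data.

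Oxsr1 encodes OSR1, the close relative of SPAK that shares its substrates, and its single probe set hardly varied. It stood at 9.39, 9.31 and 9.30 in congenic rats 1 to 3, against 9.45, 9.45 and 9.35 in S rats 1 to 3. The difference was -0.08 ± 0.07 (SE, limma, adjusted p = 0.480), with an interval of -0.23 to 0.07, or 0.851 to 1.05 times the S level.

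The ubiquitin ligase showed no strain difference that passed. Klhl3, the adaptor that binds WNK kinases, stood at 7.51, 7.36 and 7.19 in congenic rats 1 to 3, against 7.55, 7.38 and 7.57 in S rats 1 to 3, and the strains overlapped. Its difference was -0.15 ± 0.10 (SE, limma, adjusted p = 0.379). Cul3, the scaffold of the ligase, had 3 probe sets, and the brightest (1399132_at) stood at 11.69, 11.62 and 11.68 in congenic rats, against 11.57, 11.63 and 11.53 in S rats. Its difference of 0.08 ± 0.06 (SE, limma, adjusted p = 0.464) had an interval of -0.06 to 0.23. At the remaining probe sets of Cul3, with means over all rats of 8.99 and 4.43, the differences were 0.04 and 0.12. S rat 2 was not the lowest rat for Klhl3 or for the brightest Cul3 probe set, and was the lowest, at 8.79, for the Cul3 probe set of middle brightness.

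Pvalb encodes parvalbumin, a calcium-binding protein that marks the early distal convoluted tubule in rodents. Its probe set was dim, at 5.39, 5.54 and 5.42 in congenic rats 1 to 3, against 5.61, 5.39 and 5.32 in S rats 1 to 3, and lay at percentile 17.3 of all probe sets. The difference was 0.01 ± 0.09 (SE, limma, adjusted p = 0.971). Both strains were below the lower quartile of every array, which lay between 5.88 and 5.96, so this defining marker of the segment was not clearly above the array floor and gives no independent reading of it.

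Klk1 encodes tissue kallikrein, the protease of the connecting and late distal tubule that releases kinins and cleaves renal transport proteins. It varied more than any other member. It stood at 11.72, 11.49 and 11.51 in congenic rats 1 to 3, against 11.50, 7.25 and 10.20 in S rats 1 to 3. S rat 1 lay within the congenic range and the other S rats below it, S rat 2 by over 4 on the log2 scale. The means were 11.57 ± 0.12 in congenic and 9.65 ± 2.18 in S rats (SD, n = 3 each). The difference of 1.92 ± 0.87 (SE) had an interval of -0.05 to 3.90 and did not pass (limma, adjusted p = 0.208). It was 0.72 ± 0.30 (SE) without S rat 2 (limma, adjusted p = 0.235), 2.85 without S rat 1, where it passed (limma, adjusted p = 0.0232), and, once RNA quality was in the model, -2.25 ± 0.92 (SE; adjusted p = 0.665). Rat kallikreins form a cluster of near-identical genes on chromosome 1, so the probe set may also detect relatives of Klk1.

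**Figure D2:**
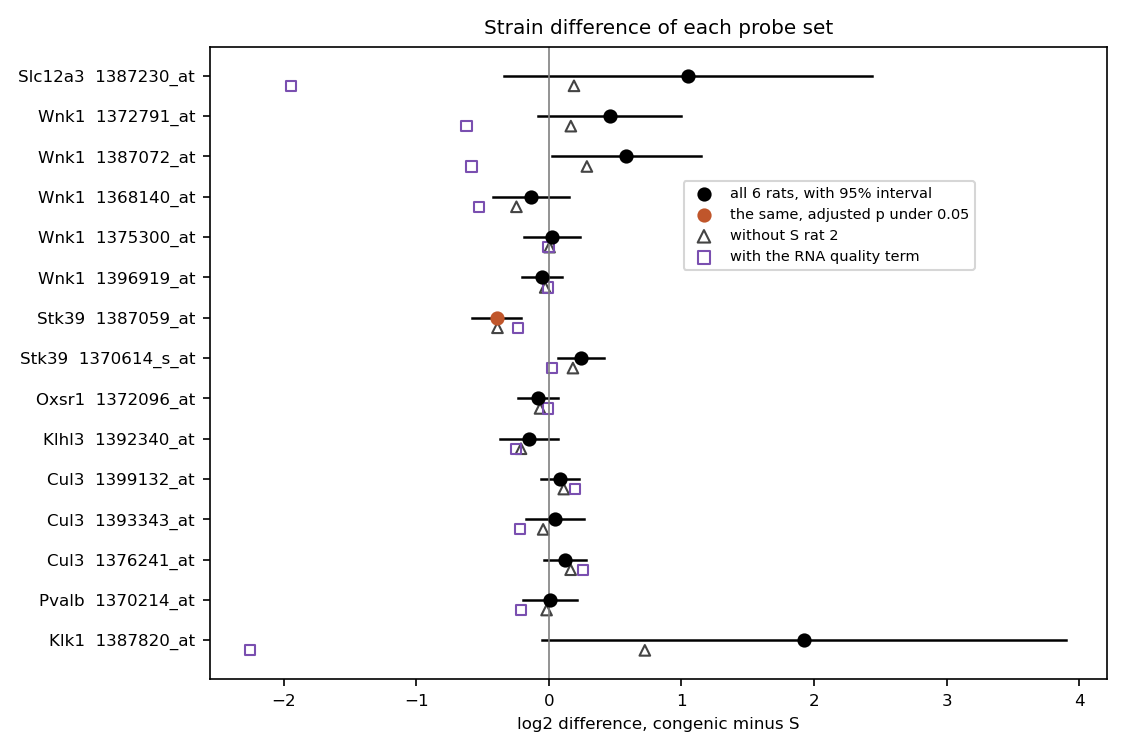
Log2 difference between strains, congenic minus S, for each of the 15 probe sets: filled circles with 95% intervals are from all 6 rats, triangles leave out S rat 2 and squares add the RNA quality term. The Stk39 probe set 1387059_at is the only one past the threshold, and the differences of Slc12a3 and Klk1 shrink to 0.19 and 0.72 without S rat 2 and turn negative with the quality term.

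The largest values of the set were its spreads among S rats. The SD among S rats was 1.53 for Slc12a3 and 2.18 for Klk1, the tenth and second largest S values of all 31042 probe sets, of which 24 (0.0773%) had an S SD above 1. The same genes had SDs of 0.05 and 0.12 among congenic rats. The S SD was 31.4 times the congenic one for Slc12a3, 17.6 times for Klk1 and 13.8 and 15.4 times for the 2 bright Wnk1 probe sets. At 12 of the 15 probe sets (80.0%) the S rats were more spread than the congenic rats, as they were at 64.2% of all probe sets. The median SD of the 15 was 0.06 in congenic and 0.14 in S rats, and over all probe sets it was 0.08 in congenic and 0.10 in S rats. The brighter Stk39 probe set ran the other way, with 0.14 in congenic and 0.03 in S rats, as did Klhl3, with 0.16 in congenic and 0.11 in S rats. These SDs rest on 3 rats a strain, and in S rats mainly on S rat 2.

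**Figure D3:**
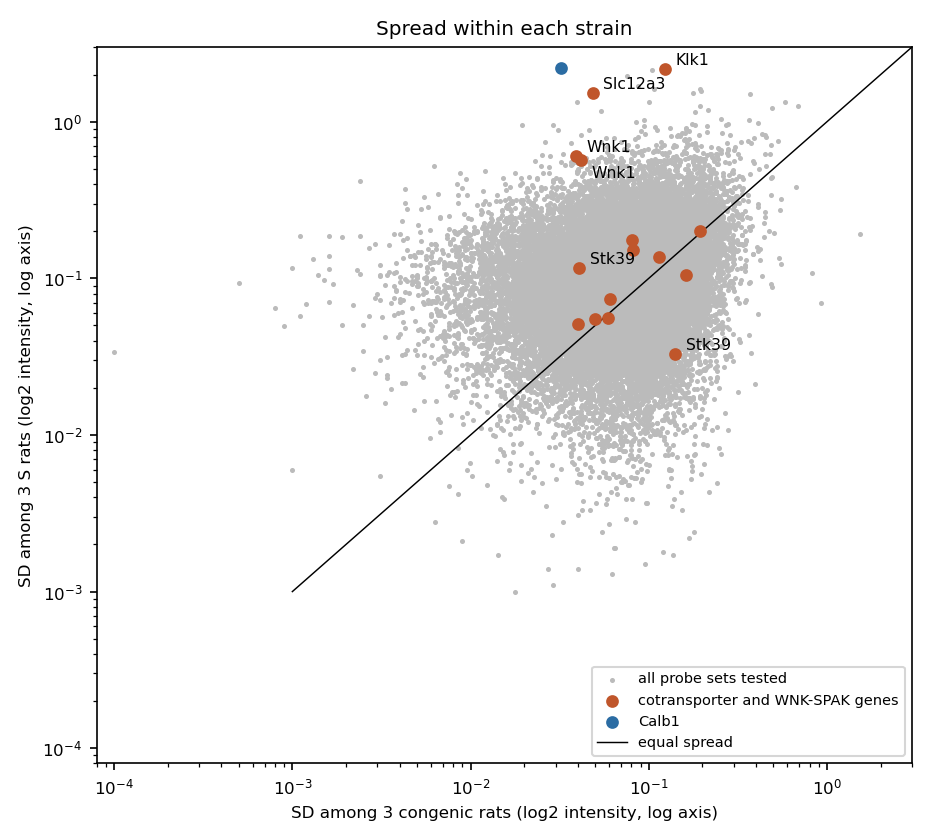
SD of log2 intensity among the 3 congenic rats (x axis) and among the 3 S rats (y axis), both on log axes, for all probe sets tested (grey), the 15 of the set (orange) and Calb1 (blue); the line marks equal spread. Slc12a3 and Klk1 lie near the top with S SDs of 1.53 and 2.18, next to Calb1 with 2.19, while the brighter Stk39 probe set lies below the line.

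In all of the 10 probe sets with the largest S SD, S rat 2 was the lowest of the 6 rats. Calb1, the calbindin of the late distal and connecting tubule, came first with an S SD of 2.19. It stood at 13.50, 13.52 and 13.46 in congenic rats 1 to 3, against 13.51, 9.38 and 12.73 in S rats 1 to 3, so S rat 1 was level with the congenic rats and S rat 2 far below. After Klk1 came its relative Klk1b3, at 12.14, 11.98 and 11.95 in congenic rats, against 12.21, 8.10 and 11.20 in S rats. The others with a gene symbol were Nphs1, which encodes the podocyte protein nephrin, Wt1, a podocyte transcription factor, and Tnnc1, a troponin subunit, and the remaining 3 had none.

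Likeness to Slc12a3 was measured as the root mean square difference over the 6 rats, each probe set taken minus its own mean, among 20811 probe sets with 1 symbol outside the set. The closest was Sfrp2, a secreted WNT regulator, at 0.10, followed by Wt1 at 0.18 and Slc8a1, the sodium calcium exchanger of the late distal tubule, at 0.25. Sema3g, a semaphorin, followed at 0.39, Slc26a4, the chloride bicarbonate exchanger pendrin of intercalated cells, also at 0.39, and Nphs1 at 0.40. Within the set the closest were Klk1 at 0.59 and the Wnk1 probe sets at 0.61 and 0.64. With 6 rats this measure follows mainly the value in S rat 2, and the genes listed mark several cell types.

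Slc8a1 stood at 11.35, 11.44 and 11.34 in congenic rats 1 to 3, against 11.54, 9.28 and 10.99 in S rats 1 to 3. Nphs1 stood at 8.47, 8.29 and 8.27 in congenic rats, against 8.87, 5.67 and 6.90 in S rats. Slc26a4 lay between 9.46 and 9.51 in congenic rats, against a highest value of 9.65 and a lowest of 7.76 in S rats. In each, S rat 1 was the highest and S rat 2 the lowest of all 6, with S rat 3 between, which is the order of Slc12a3. All 3 genes were among the 6 picked as most like Slc12a3, so the shared order is no separate result. None of the 3 passed (limma, adjusted p from 0.290 to 0.354).

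Markers of other segments were mixed, and within a segment some had the order of Slc12a3 among S rats (rat 1, then 3, then 2) and some did not. Over the array S rat 2 was the lowest of the 6 rats at 2782 of 14217 genes by brightest probe set. The array-wide share with the full order was not counted, so the counts below have no background. Umod, the thick ascending limb marker uromodulin, stood at 14.62 in each congenic rat, against 14.71, 14.76 and 14.70 in S rats 1 to 3. Slc12a1, the furosemide-sensitive cotransporter of that limb and a substrate of SPAK, stood at 13.37 in S rat 2, above every congenic rat. Kcnj1, the potassium channel of the same limb, had the Slc12a3 order, at 10.50, 10.67 and 10.65 in congenic rats 1 to 3, against 10.35, 9.62 and 10.09 in S rats 1 to 3. By brightest probe set it was the only 1 of the 6 limb markers to have it. A dimmer probe set of Ptger3 also had it, at 8.98, 8.62 and 8.87 in S rats 1 to 3, while the brightest Ptger3 probe set did not.

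In the collecting duct, 3 of 7 markers had this order, each with S rat 2 the lowest of the 6 rats. They were Hsd11b2, the enzyme that shields the mineralocorticoid receptor from glucocorticoids, and Scnn1b and Scnn1g, subunits of the epithelial sodium channel. Hsd11b2 stood at 12.05, 12.07 and 12.14 in congenic rats 1 to 3, against 12.10, 11.29 and 11.70 in S rats 1 to 3. The brightest marker, the water channel gene Aqp2, stood at 12.79, 12.75 and 12.61 in congenic rats, against 12.84, 12.80 and 12.88 in S rats, so that S rat 2 was the lowest S rat and level with the highest congenic rat.

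In the proximal tubule, the 2 brightest markers were nearly flat, with ranges over all rats of 0.09 for Kap and 0.06 for Miox, and 4 of 9 markers had the Slc12a3 order. Of these, the glucose transporter gene Slc5a2 stood at 11.02, 10.35 and 10.46 in congenic rats 1 to 3, against 9.71, 8.21 and 8.89 in S rats 1 to 3. The anion transporter gene Slc22a8 stood at 12.06, 11.59 and 11.93 in congenic rats, against 10.92, 9.55 and 10.14 in S rats. Unlike at Slc12a3, S rat 1 was below every congenic rat at both, and both rose in congenic rats, by 1.67 and 1.66 (limma, adjusted p = 0.0333 and adjusted p = 0.0265). Once RNA quality was in the model they differed by 0.60 and 0.59 and did not pass (limma, adjusted p = 0.916 and adjusted p = 0.885).

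The remaining lists also split. By brightest probe set, all 4 podocyte markers measured had the order, the 2 brightest, Synpo and Podxl, with ranges of 1.03 and 0.49. Their dimmer probe sets were split. Those of Synpo and Wt1 and the dimmest of Podxl did not have the order, while those of Nphs1 and the other of Podxl did. By brightest probe set, the order was seen at 3 of 4 intercalated cell markers, among them the transcription factor gene Foxi1. It was not seen at the brightest, the anion exchanger gene Slc4a1, where the brightest probe set fell by 0.28 (limma, adjusted p = 0.0463). A dimmer Slc4a1 probe set went the other way, by 0.31 (limma, adjusted p = 0.0842), with S rat 2 the lowest rat at 8.45. None of the 6 adipocyte markers (brightest Lpl and Cidec) and none of the 5 leukocyte markers (brightest Cd74 and Cd68) had the Slc12a3 order. Ucp1, the uncoupling protein of brown fat, had the widest range of these at 2.17, with 9.07, 8.55 and 8.16 in congenic rats 1 to 3, against 9.47, 9.39 and 10.33 in S rats 1 to 3. Among all the marker genes at their brightest probe set, Cldn16, Cidec and Ppp1r1a (given below) also passed lower in congenic rats, and Cd74 and C1qb higher. Dimmer probe sets of Ptprc, Aqp1, Ptger3, Scnn1g, Synpo and Slc22a8 passed higher as well. Those of Aqp1 and Ptger3 differed by 0.95 and 0.54, against -0.05 and -0.40 at the brightest probe set. None of these calls was kept once RNA quality was in the model, where 0 probe sets of the array passed (limma; 2292 at an unadjusted p under 0.05).

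**Figure D4:**
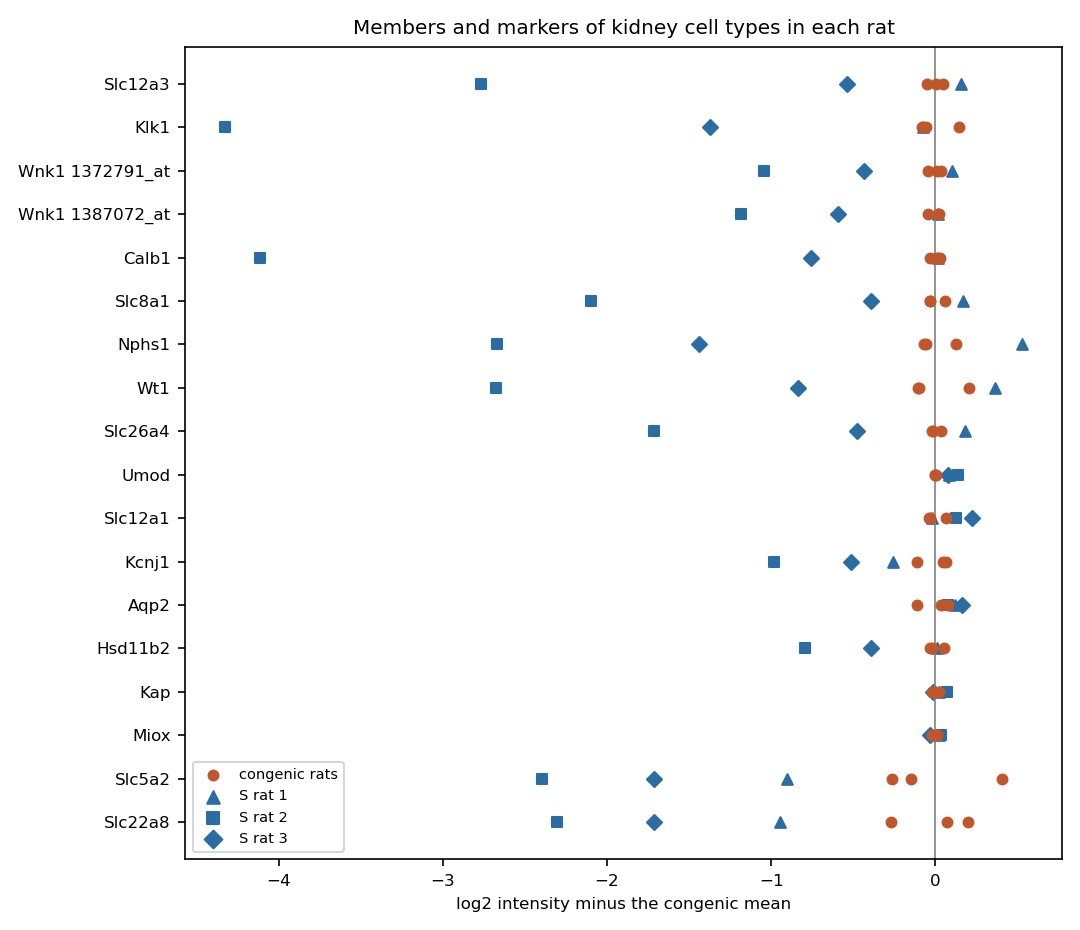
Log2 intensity of each rat minus the congenic mean (x axis) for Slc12a3, Klk1, 2 Wnk1 probe sets and markers of the late distal tubule (Calb1, Slc8a1), podocytes (Nphs1, Wt1), intercalated cells (Slc26a4), thick ascending limb (Umod, Slc12a1, Kcnj1), collecting duct (Aqp2, Hsd11b2) and proximal tubule (Kap, Miox, Slc5a2, Slc22a8); circles are congenic rats, and the triangle, square and diamond are S rats 1, 2 and 3. S rat 2 lies lowest for the upper 9 rows and for Kcnj1, Hsd11b2, Slc5a2 and Slc22a8, and not for Umod, Slc12a1, Aqp2, Kap or Miox. Slc8a1, Nphs1, Wt1 and Slc26a4 were picked for likeness to Slc12a3. Slc4a1, the brightest intercalated cell marker, and the distal tubule gene S100g (described below) are not plotted. There S rat 2 stood at 10.41 and 7.64, above every congenic rat.

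Over whole marker lists, summed as linear intensity, the distal convoluted tubule list (6 of 8 genes measured) lay between 20541 and 21293 in congenic rats, against 23017, 7534 and 16335 in S rats 1 to 3. The podocyte list (4 of 5) lay between 3837 and 4111 in congenic rats, against 4654, 2328 and 2659 in S rats 1 to 3. The intercalated cell list (4 of 6) lay between 3551 and 3640 in congenic rats, against 4048, 2786 and 3499 in S rats 1 to 3. The order of Slc12a3 within S rats was seen in each of these sums, and the first contains Slc12a3 itself. Of its 6 genes only Slc12a3 and Calb1 had that order, and Ppp1r1a, Klhl3, Pvalb and Kcnj10 did not. Without Slc12a3 and Calb1 the sum lay between 4227 and 4795 in congenic rats, against 5894, 6145 and 6146 in S rats 1 to 3. This remaining sum is mainly Ppp1r1a, whose log2 mean over all rats was 12.29, against 7.43 for Klhl3, 5.45 for Pvalb and 4.92 for Kcnj10. It therefore repeats the Ppp1r1a values given below and says little of the other genes. The thick ascending limb list (6 of 6) lay between 43889 and 45214 in congenic and between 46218 and 48514 in S rats, with S rat 2 the highest. The collecting duct list (7 of 7) lay between 17267 and 18709 in congenic rats, against 18827, 17424 and 18158 in S rats 1 to 3, again the Slc12a3 order, with S rat 2 inside the congenic range. The proximal list (9 of 9) ran from 111896 to 116578 in congenic and from 104810 to 111669 in S rats, the adipocyte list (6 of 6) from 4017 to 4844 in congenic and from 5040 to 7062 in S rats, and the leukocyte list (5 of 5) from 11180 to 12038 in congenic and from 9354 to 10302 in S rats. The part of tissue makeup in the values of Slc12a3, Klk1 and Wnk1 was not tested.

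Among 29 listed partners, relatives and other substrates of the WNK-SPAK cascade, 27 were measured, and 1 passed, lower in congenic rats. By brightest probe set, 4.79% of all genes passed. The gene was Ppp1r1a, which encodes inhibitor-1, a protein that restrains protein phosphatase 1 and in mice is known to favour phosphorylation of the cotransporter. It stood at 12.15, 12.09 and 11.97 in congenic rats 1 to 3, against 12.46, 12.53 and 12.52 in S rats 1 to 3. The strains did not overlap, and S rat 2 was level with its strain. Ppp1r1a fell by 0.43 on the log2 scale (SE 0.07, limma, adjusted p = 0.0224), and by 0.42 without S rat 2, where it passed (limma, adjusted p = 0.0348). It did not pass without congenic rat 2, congenic rat 3 or S rat 3, where 0, 8 and 0 probe sets of the whole array passed. A dimmer probe set of Ppp1r1a also fell, by 0.72 (SE 0.11, limma, adjusted p = 0.0202). It stood at 10.24, 10.01 and 10.03 in congenic rats 1 to 3, against 10.66, 11.02 and 10.74 in S rats 1 to 3. With the RNA quality term the differences were -0.33 and -0.23, and neither passed.

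The other 26 did not pass, and the median of the list was -0.03, as was that of all 14217 genes. The most abundant were Tsc22d1, of a family whose proteins bind WNK kinases, with a difference of 0.09, Slc12a1 with -0.11 and Nedd8, the modifier that activates cullin ligases, with 0.16. A dimmer probe set of Ppp3r1, a calcineurin subunit, rose by 1.76 (limma, adjusted p = 0.0317), where its brightest one differed by 0.20 (adjusted p = 0.208). Once RNA quality was in the model the dimmer one differed by 0.15. Fkbp1a also rose at a dimmer probe set, by 0.30 (limma, adjusted p = 0.0403), where its brightest one differed by 0.07. This Fkbp1a call was lost without S rat 2 (limma, adjusted p = 0.0801), and the difference was 0.15 with the RNA quality term.

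Of 29 further salt and magnesium genes of the distal tubule 23 were measured, and 1 passed, lower in congenic rats. S100g, the small vitamin D-dependent calbindin, stood at 7.31, 7.07 and 6.98 in congenic rats 1 to 3, against 7.44, 7.64 and 7.53 in S rats 1 to 3. No congenic rat reached any S rat. The change of -0.42 ± 0.10 (SE, limma, adjusted p = 0.0470) was -0.37 without S rat 2 (adjusted p = 0.0973) and -0.09 with the RNA quality term. It did not pass there, or without congenic rat 2, congenic rat 3 or S rat 3. With the term 0 probe sets of the whole array passed, and without these rats 0, 8 and 0. The most abundant genes of the list were Umod (-0.10), Fxyd2, a sodium pump subunit whose mutation wastes magnesium in humans (0.01), Atp1b1, the pump's beta subunit (0.62, adjusted p = 0.0721), and Egf, whose product epidermal growth factor promotes magnesium uptake (-0.10). Calb1, at 1.62 ± 0.87 (SE, limma, adjusted p = 0.290), and Slc8a1, at 0.77 (adjusted p = 0.354), had the largest differences and did not pass. The list median was 0.01.

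Trpm7, the relative of Trpm6, differed by 0.04 at its brightest probe set, while a dimmer one rose by 0.69 (limma, adjusted p = 0.0392). Leaving out S rat 2 ended this call (limma, adjusted p = 0.0529), and the difference was 0.11 with the RNA quality term. Trpv5, the apical calcium channel, was likewise split, at -0.21 for the brighter probe set (adjusted p = 0.145) and 0.71 for one with a mean of 6.00, which rose (limma, adjusted p = 0.0171). This dimmer Trpv5 probe set, at percentile 26.3, also passed without S rat 2 (limma, adjusted p = 0.0209). With the RNA quality term it differed by 0.58 and did not pass (limma, adjusted p = 0.55). Both channels share with Stk39 that 2 probe sets of 1 gene disagree in sign or size. At Atp2b1, of the same list, a dimmer probe set differed by -0.41 (limma, adjusted p = 0.0287), where the brightest one differed by -0.03. The dimmer one passed without S rat 2 (limma, adjusted p = 0.0485). With the RNA quality term it differed by -0.22 and did not pass.

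Of 19 listed kallikrein and kinin genes 15 were measured and none passed at the brightest probe set (limma; 2, Mme and Slc14a2, at an unadjusted p under 0.05). In the same fit 7895 of all 31042 probe sets were under this unadjusted limit, so 2 of 15 is no excess over the array. Mme, which encodes the kinin-degrading protease neprilysin, differed by -0.18 (adjusted p = 0.128), Cpm, a carboxypeptidase, at -0.05, and Cpn1 at -0.11. Slc14a2 is on the list but encodes a urea transporter, so it is no reading of the kallikrein and kinin genes. It differed by -0.43 (adjusted p = 0.109), and a dimmer probe set fell by 0.55 (limma, adjusted p = 0.0464). This dimmer one did not pass without S rat 2 (limma, adjusted p = 0.0809) and differed by 0.05 with the RNA quality term. Its other dimmer probe sets differed by -0.30, -0.36 and 0.01 and did not pass. The kinin receptor gene Bdkrb2 was at 7.19, 7.25 and 7.02 in congenic rats 1 to 3, against 7.30, 7.14 and 7.45 in S rats 1 to 3. None of the 15 had a range over 1 across the 6 rats, against 4.47 for Klk1. The kallikrein genes among the 15 were dim, the brightest at percentile 18.2 of all probe sets, where a wide range could be hidden. A wide range was not particular to Klk1. Its relative Klk1b3, outside the list, stood at 12.21, 8.10 and 11.20 in S rats 1 to 3. Across the 3 lists together, 2 of 65 genes passed, both lower in congenic rats.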

How the data were processed

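Kidney RNA of 6 rats was hybridised to Affymetrix Rat Expression Array 230 2.0, 1 array a rat, per the labels. The values the authors deposited are log2 intensities per probe set, as judged from a range of 3.76 to 15.1 and array medians of 7.48 to 7.51. How probes were summarised and arrays normalised is not stated in the labels. The submitters' notes name Benjamini-Hochberg adjustment and R 2.8.1.

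No arrays were identical, and they correlated at 0.985 to 0.998. With 57 control probe sets left out, 31042 were tested. Platform symbols were updated by Entrez identifier to the GRCr8 gene table: 20826 probe sets had 1 symbol, 436 several (not named) and 9780 none listed. Coordinates are given only for promoter windows.

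The strain test used limma 3.58.1 (R 4.3.3, lmFit and eBayes, 4 residual and 8.49 total degrees of freedom), first tested on simulated data. Listed genes were read at their brightest probe set. Precision rests on 3 rats a strain. Other settings tried were quantile and median scaling, dropping probe sets below percentile 40 of mean intensity, trend and robust options of eBayes, weights per array, rat number as a block, the RNA quality term and each rat left out. Figures were drawn with matplotlib 3.10.9.

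Members, lists and tests were chosen with earlier results of these data known. The text names all members, listed genes that passed, the 4 most abundant of each pathway list, the 2 brightest markers of each list, markers with a range over 2, and the 6 genes most like Slc12a3. Klk1b3, Tnnc1, Bdkrb2, Trpm7, Trpv5, Kcnj1, Kcnj10, Scnn1b, Scnn1g, Cldn16 and C1qb were chosen after their values were seen. So were the dimmer probe sets of Ppp1r1a, Ppp3r1, Fkbp1a, Atp2b1, Slc14a2, Slc4a1, Ptprc, Aqp1, Ptger3, Scnn1g, Synpo, Nphs1, Podxl, Wt1 and Slc22a8.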

Additional observations from a re-analysis of the deposited data

How the results depend on the processing

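The count of probe sets called over the array was 1862, of the set 1 and of the 65 pathway genes 2. With array weights these were 6077, 3 and 16, with the rat number as a replicate block 658, 0 and 0, and with the RNA quality term 0, 0 and 0 (limma, with 2292, 3 and 9 below an unadjusted p of 0.05). Leaving out 1 rat gave 0 to 4752, 0 to 5 and 0 to 10. The array-wide count was 0 without congenic rat 2 or S rat 3 (5575 and 6968 below an unadjusted p of 0.05), 8 without congenic rat 3, 350 without congenic rat 1, 968 without S rat 2 and 4752 without S rat 1. The pathway count was 5 with an intensity trend and 8 with the probe set of smallest p per gene.

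Of 205 alternative values of the 15 probe sets, 176 kept direction and side of the threshold and 17 changed sign. With the RNA quality term these were Slc12a3 (-1.95), Klk1 (-2.25), Wnk1 (-0.62, -0.58 and -0.0029), Cul3 at 1393343_at (-0.22) and Pvalb (-0.21). With array weights they were Wnk1 at 1375300_at (-0.10) and at 1396919_at (0.0045), and with median centring Pvalb (-0.0053). Leaving out 1 rat, Pvalb ran from -0.0503 to 0.0939, Wnk1 at 1375300_at from -0.0329 to 0.10 and Cul3 at 1393343_at from -0.0436 to 0.13. The Stk39 call at 1387059_at was also lost under the replicate block (-0.39, adjusted p = 0.0721). Same-numbered rats did not deviate together (correlations of -0.01, -0.18 and -0.14), so the numbers were not taken as pairs. Rats of different number correlated at -0.25 to 0.38, and cage mates are not identified. The pathway calls, Ppp1r1a and S100g, were also lost under the block. The causes were not tested. Array values carry no depth, and the dim probe sets of Pvalb, Wnk1 and Cul3 limit what could be seen there.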
